A study of Mus musculus with 11 samples.

Results

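A set of 10 genes of the mature surface colonocyte was followed in the colon mucosa of mice fed inulin: Prap1, Tmigd1, Car1, Car4, Krt20, Guca2a, Aqp8, Ceacam20, Vil1 and Cdx2. They were found by name, as array probe sets that the platform annotation gives exactly 1 of these symbols, and each of the 10 has 1 such probe set, out of 18820 genes measured. The RNA came from mucosal scrapings of male C57BL/6J mice aged 12 weeks, 1 array per mouse. All mice first had 2 weeks of a low-fat diet, and then for 10 days either stayed on it (control, n = 5) or ate it with 10% of its weight, taken from corn starch, as inulin, a plant fructan that colon bacteria ferment (inulin, n = 6). Per the labels' protocols the mice then fasted overnight, received 1 g of their diet and were killed 4 h later, while the series' design text has the colon taken after the fast. No knockout, transgene or drug was used, and cage and batch are not given, so neither was tested.

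Colonocytes are born in the crypt, move up its wall and reach the surface within days. On the way they stop dividing, build a brush border of actin-filled microvilli, and switch on the enzymes, channels and secreted peptides that exchange salt, bicarbonate and water with the gut contents. Cdx2, a homeobox transcription factor, sets the intestinal identity of the whole epithelium. The other 9 genes are used as markers of the differentiated upper crypt and surface, and several of them also differ along the length of the colon.

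Array values are on a log2 scale, on which a difference of 1 is a 2-fold change in signal. Over the 11 arrays the lower quartile of all probe sets was 3.72 to 3.79 and the upper quartile 7.71 to 7.75, so 9 of the genes lay above the upper quartile in every mouse and Prap1 did so in the inulin mice other than inulin mouse 6. The tissue label was borne out by the pan-epithelial markers, with Epcam at 11.85 in both diets and Cdh1 at 11.84 and 11.75. Scrapings also carried other tissue, unevenly between mice. The mean of 10 fat cell markers was 7.67, 7.30 and 6.82 in inulin mice 5, 4 and 2 against 5.35 to 5.88 in control, and the mean of 12 pancreas markers was 9.47 in inulin mouse 3 against 5.26 to 7.44 in all others. Inulin mouse 4 had the lowest mean of Hoxb13 and Hoxa13, homeobox genes that mark the distal colon (7.67, where its 5 diet mates had 8.34 to 9.38 and the controls 8.79 to 9.41). Inulin mouse 5 stood apart from the others on the main axis of variation over all genes (37.0, against -12.3 to 13.5). In such tissue samples, more cells of a type and more RNA per cell cannot be told apart.

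The comparison of the diets asked whether surface colonocyte genes respond to a fermentable fibre. Prap1, a proline-rich protein secreted by gut epithelium, and Tmigd1, an adhesion molecule of the brush border, differed most, with means 2.28-fold and 1.59-fold higher under inulin. Krt20, the keratin of surface cells, and Guca2a, the peptide hormone guanylin, had means 1.23-fold and 1.15-fold higher. Car1, Car4, Ceacam20 and Vil1 had means between 1.03-fold and 1.08-fold of control, and Aqp8 and Cdx2 had means of 0.943-fold and 0.988-fold. In limma, adjusted over all 18820 genes, 0 of the 10 passed the threshold of 0.05, against 17 of all genes (0.0903%; 0.0531% passed and were higher). At an adjusted p under 0.1, 2 of the 10 were higher, Prap1 and Tmigd1, against 0.361% of all genes. At an unadjusted limma p under 0.05, 4 of the 10 were higher, against 6.34% of all genes, and 0 were lower, against 7.19%. With a test that does not share variance between genes, 0 of the 10 passed after adjustment, and so did 0 of all genes.

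Every inulin mouse lay above every control mouse in 3 of the 10 genes, Prap1, Tmigd1 and Guca2a, an arrangement found in 1.01% of all genes, and below every control mouse in 0 of the 10, against 1.16%. Higher means under inulin were seen in 8 of the 10, against 51.4% of all genes. The median difference of the 10 was 0.11 on the log2 scale and their mean 0.26, against a median of 0.0039 over all genes. The genes were chosen with earlier results of these data known, so these counts are a description of the list.

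**Figure D1:**
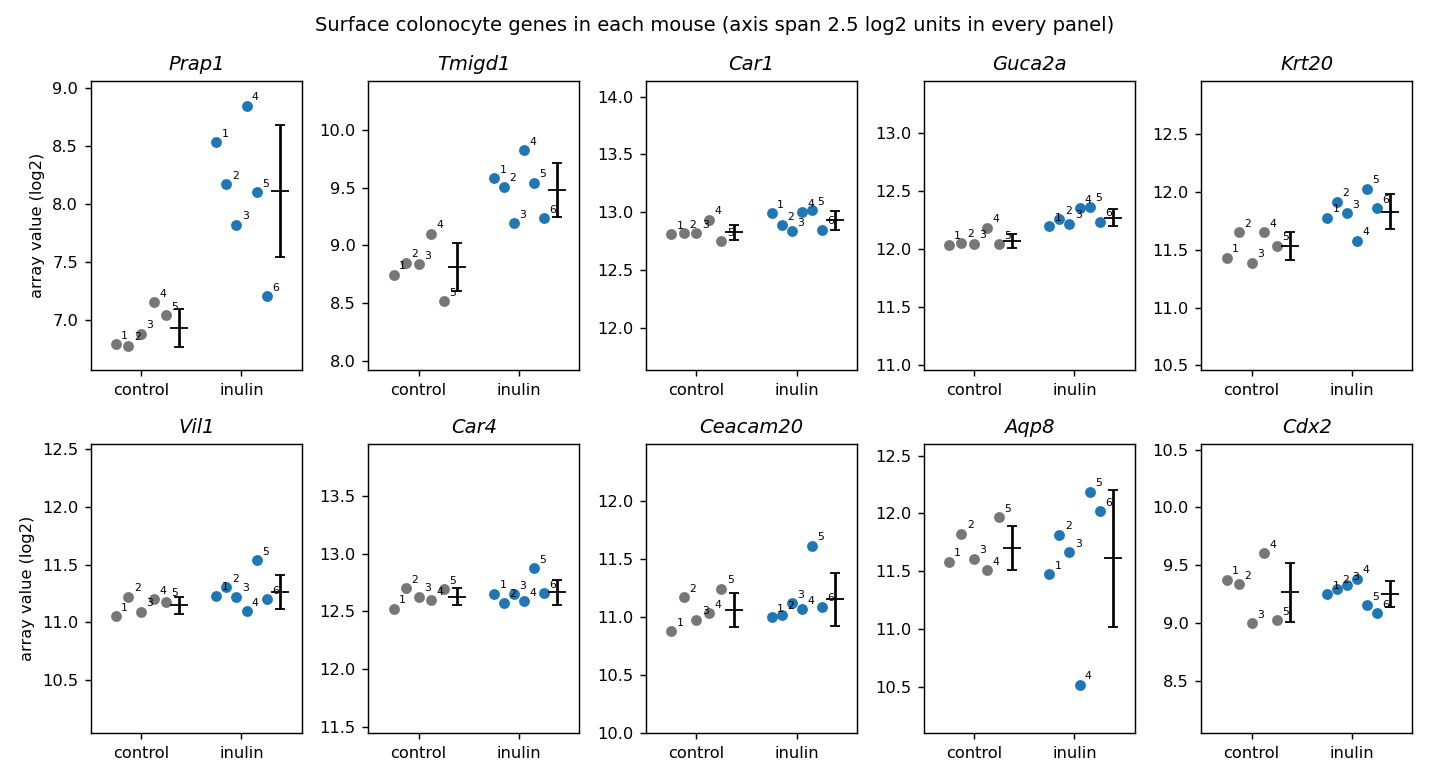
Array values (log2, y axis) of the 10 genes in 5 control mice (grey) and 6 inulin mice (blue). Points are mice with their number, and the black mark and bar are the group mean and SD. Every panel spans the same 2.5 log2 units. The groups are apart in Prap1, Tmigd1 and Guca2a and overlap in the others, and inulin mouse 4 lies at 10.52 in Aqp8, below all other mice.

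The bases just upstream of the 4 genes with an unadjusted limma p under 0.05 are shown for reference. On deviations from the diet means, r was 0.72 for Prap1 with Tmigd1, 0.66 for Tmigd1 with Guca2a and 0.38 for Prap1 with Guca2a. Krt20 had r = -0.36, -0.14 and 0.24 with Prap1, Tmigd1 and Guca2a, the last being 0.71 without inulin mouse 4. The permutation p of these pairs, adjusted over 45 pairs, ran from 0.13 to 0.84. The sequences are the 250 bases before the RefSeq transcription start on assembly GRCm38.p6, written 5′ to 3′ on the strand of the gene. Capitals mark matches, on either strand, to CDX-type motifs (CAATAAA and its variants, which are CCATAAA as well as TCATAAA and also TAATAAA, the kind of site that Cdx2 and its relatives bind), GATA motifs (AGATAA), KLF-type motifs (GGGTGTG and also GGGCGTG) and HNF4-type motifs (CAAAGTCC and also CAAAGGTC), and to a TATA box (TATAAA) on the gene's own strand. A match on the other strand appears as its reverse complement, and no match in these windows overlapped another. RefSeq lists 2 starts for Tmigd1, the second inside the gene.
Prap1, chr7:140093146-140093395, + strand: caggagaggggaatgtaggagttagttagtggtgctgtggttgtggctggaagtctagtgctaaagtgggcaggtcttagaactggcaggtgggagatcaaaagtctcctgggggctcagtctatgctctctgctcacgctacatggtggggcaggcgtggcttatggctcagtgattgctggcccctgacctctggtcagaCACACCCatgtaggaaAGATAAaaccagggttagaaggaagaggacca
Tmigd1 start 1, chr11:76890870-76891119, + strand: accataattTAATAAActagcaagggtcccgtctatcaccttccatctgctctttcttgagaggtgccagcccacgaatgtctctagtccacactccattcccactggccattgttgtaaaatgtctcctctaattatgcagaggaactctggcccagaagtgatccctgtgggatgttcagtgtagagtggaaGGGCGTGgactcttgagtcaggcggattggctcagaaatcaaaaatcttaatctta
Tmigd1 start 2, chr11:76901909-76902158, + strand: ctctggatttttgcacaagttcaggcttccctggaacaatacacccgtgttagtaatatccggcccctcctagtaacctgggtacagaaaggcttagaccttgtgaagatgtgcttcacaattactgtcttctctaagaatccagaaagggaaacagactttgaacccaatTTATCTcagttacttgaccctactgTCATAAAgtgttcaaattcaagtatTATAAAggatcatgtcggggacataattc
Guca2a, chr4:119637482-119637731, + strand: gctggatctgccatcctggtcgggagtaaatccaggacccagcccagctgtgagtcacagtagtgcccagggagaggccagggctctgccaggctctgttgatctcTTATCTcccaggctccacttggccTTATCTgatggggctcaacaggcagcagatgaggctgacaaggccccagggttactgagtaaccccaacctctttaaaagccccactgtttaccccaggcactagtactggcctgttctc
Krt20, chr11:99438154-99438403, - strand: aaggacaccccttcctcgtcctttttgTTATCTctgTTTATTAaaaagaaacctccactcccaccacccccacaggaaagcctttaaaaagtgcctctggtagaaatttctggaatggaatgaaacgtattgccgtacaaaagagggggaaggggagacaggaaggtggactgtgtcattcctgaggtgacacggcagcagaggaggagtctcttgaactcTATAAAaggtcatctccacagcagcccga

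Upstream windows were found for 9 of the 10 genes, 10 windows in all. A CDX-type motif was present in 4 of these windows, belonging to Tmigd1 (both starts), Krt20 and Ceacam20, against 13.1% of the 32851 mouse windows of the same length. At the second Tmigd1 start it lay 54 to 48 bases before the start, ahead of a TATA box at 29 to 24 bases. A GATA motif was present in 4 windows, those of Prap1, Guca2a, Krt20 and the second Tmigd1 start, against 9.99% of all windows, and Guca2a had 2 of them. KLF-type motifs were found for Prap1 and the first Tmigd1 start (13.8% of all windows), an HNF4-type motif for Vil1 alone, at 27 to 20 bases before the start (2.19%), and TATA boxes for Krt20 and the second Tmigd1 start (7.59%). A match describes the letters of a window and is no evidence of binding, and the arrays measured no binding.

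Among the secreted products, Prap1 was at 6.79, 6.78, 6.88, 7.15 and 7.04 in control mice 1 to 5, and ran from 7.20 in inulin mouse 6 through a median of 8.14 to 8.85 in inulin mouse 4. The lowest inulin mouse thus sat just above the highest control, while the other 5 inulin mice lay at 7.82 or more. The difference was 1.19 ± 0.23 (SE), 2.28-fold with a 95% interval from 1.62 to 3.20, with a limma adjusted p of 0.065 and an exact permutation p of 0.0043 (two-sided, 462 divisions of the mice, smallest possible 0.0022). The spread of Prap1 was wider in inulin (SD 0.57, n = 6) than in control mice (SD 0.16, n = 5), a difference in spread that was not tested. Without inulin mouse 6 the difference was 1.37 and passed (limma adjusted p 0.011). Over the other alternatives it was between 0.78, with Hoxb13 and Hoxa13 as a covariate (adjusted p 0.076), and 1.37, with the adjusted p between 0.0025 and 0.27.

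Guca2a encodes guanylin, which is released towards the lumen and acts through the receptor guanylate cyclase C, encoded by Gucy2c. It was at 12.04, 12.05, 12.05, 12.18 and 12.04 in control mice 1 to 5 and between 12.19 (inulin mouse 1) and 12.37 (inulin mouse 5), with a median of 12.25, under inulin. Control mouse 4 was close to the lowest inulin mice, and the other 4 controls were nearly equal. The difference was small but so was the spread: 0.20 ± 0.052 (SE), 1.15-fold with a 95% interval from 1.06 to 1.24, limma adjusted p 0.15, exact permutation p 0.0022, the smallest possible. The within-diet SD of Guca2a, 0.067, was lower than that of all but 7.21% of genes. It passed in 0 of the 26 alternatives (adjusted p 0.069 to 0.52), and with fat cell and pancreas markers as covariates the difference was 0.11.

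Tmigd1 was at 8.75, 8.85, 8.84, 9.10 and 8.52 in control mice 1 to 5 and ran from 9.19 (inulin mouse 3) through a median of 9.53 to 9.82 (inulin mouse 4). The groups did not overlap, with control mouse 4 nearest to the inulin mice. The difference was 0.67 ± 0.12 (SE), 1.59-fold with a 95% interval from 1.33 to 1.90, limma adjusted p 0.057, exact permutation p 0.0022. This placed Tmigd1 at rank 34 of all genes by p, and Prap1 at rank 50. Its call turned on the settings: it passed in 10 of 26 alternatives, among them leaving out control mouse 4, inulin mouse 5 or inulin mouse 6 (adjusted p 0.035, 0.049 and 0.039), and did not pass in the other 16 (up to 0.19).

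Vil1, which bundles the actin of microvilli, and Ceacam20, a glycoprotein of the microvillus membrane, complete the brush border group. Vil1 was at 11.05, 11.22, 11.09, 11.20 and 11.18 in control mice and from 11.10 (inulin mouse 4) to 11.54 (inulin mouse 5), median 11.23, under inulin. Ceacam20 was at 10.88, 11.17, 10.98, 11.03 and 11.24 in control mice and from 10.9997 (inulin mouse 1) to 11.62 (inulin mouse 5), median 11.08. In both genes the groups overlapped and inulin mouse 5 was on top. The differences were 0.12 ± 0.073 (SE; 1.08-fold, 95% interval 0.972 to 1.21; limma adjusted p 0.51) and 0.092 ± 0.11 (SE; 1.07-fold, 0.906 to 1.25; adjusted p 0.76). Without inulin mouse 5 they were 0.063 for Vil1 and -0.0011 for Ceacam20, on the other side of 0.

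Krt20, an intermediate filament protein of surface cells, was at 11.43, 11.65, 11.39, 11.65 and 11.53 in control mice and from 11.58 (inulin mouse 4) through a median of 11.84 to 12.03 (inulin mouse 5). The 5 inulin mice other than mouse 4 lay above every control, and mouse 4 lay among the controls. The difference was 0.30 ± 0.080 (SE), 1.23-fold with a 95% interval from 1.09 to 1.39, limma adjusted p 0.16 and exact permutation p 0.0087. The limma adjusted p stayed between 0.057 and 0.39 over the 26 alternatives, and without inulin mouse 4 the difference was 0.35. Of 5 other keratins of simple epithelium 2 had higher means and 3 lower, with Krt23 at -0.27 ± 0.11 (SE) and Krt18 at -0.11 ± 0.056 (SE), 0 past the threshold, and a median of -0.083.

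The 2 carbonic anhydrases interconvert carbon dioxide and bicarbonate, Car1 in the cytosol and Car4 at the outer face of the apical membrane. Car1 was at 12.81, 12.82, 12.82, 12.93 and 12.75 in control mice and from 12.84 (inulin mouse 3) to 13.02 (inulin mouse 5), median 12.94, with all 6 inulin mice above the control mean. Car4 was at 12.53, 12.70, 12.63, 12.60 and 12.69 in control mice and from 12.58 (inulin mouse 2) to 12.88 (inulin mouse 5), median 12.65. The groups overlapped in both. The difference was 0.10 ± 0.055 (SE; 1.07-fold, 95% interval 0.990 to 1.17; limma adjusted p 0.43) for Car1 and 0.038 ± 0.062 (SE; 1.03-fold, 0.936 to 1.13; adjusted p 0.84) for Car4. Without inulin mouse 5 the difference of Car4 was -0.0041, on the other side of 0. Both lay near the top of the array scale, whose highest value was 13.67, and whether it compresses differences there was not tested.

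Aqp8, a water channel of surface colonocytes, was at 11.58, 11.82, 11.61, 11.51 and 11.97 in control mice and from 10.52 (inulin mouse 4) through a median of 11.74 to 12.19 (inulin mouse 5). Inulin mouse 4 lay 0.99 below the lowest control, and inulin mice 5 and 6 lay above every control. The difference was -0.085 ± 0.24 (SE; 0.943-fold, 95% interval 0.661 to 1.35; limma adjusted p 0.91), and it was 0.13 without inulin mouse 4, on the other side of 0. Its within-diet SD of 0.46 was higher than that of 98.2% of genes, so the interval covers changes of up to 1.35-fold upwards.

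Cdx2 was at 9.38, 9.34, 9.0, 9.60 and 9.03 in control mice and from 9.08 (inulin mouse 6) to 9.39 (inulin mouse 4), median 9.27, under inulin. All inulin mice lay within the control range. The difference was -0.018 ± 0.10 (SE; 0.988-fold, 95% interval 0.845 to 1.15; limma adjusted p 0.96), with a sign that changed between alternatives.

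**Figure D2:**
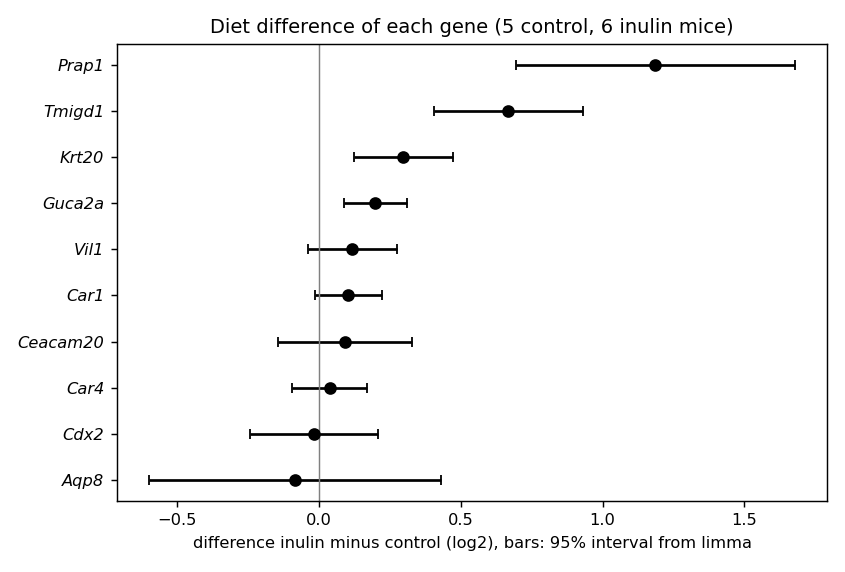
Difference between inulin and control means (log2, x axis) for each of the 10 genes, ordered by size, with 95% intervals from limma (5 control, 6 inulin mice). The intervals of Prap1, Tmigd1, Krt20 and Guca2a lie above 0 before adjustment for 18820 genes, and the other 6 include 0.

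How the genes varied between mice of 1 diet was examined on deviations from the diet means, over the 11 mice. The 45 pairs had a median Pearson r of 0.28, and 16 of them (35.6%) reached 0.5, against a median of 0.0055 and 9.64% over all pairs of genes. The 10 genes did not all vary in the same direction, with r above 0 in 29 of the 45 pairs, against 50.5% over all pairs of genes. Prap1, Tmigd1, Car1 and Guca2a were positively correlated with each other (6 pairs, r 0.38 to 0.89, median 0.69), and so were Car4, Ceacam20, Krt20, Vil1 and Aqp8 (10 pairs, r 0.51 to 0.94, median 0.73). Between these sets r ran from -0.69 (Prap1 with Aqp8) to 0.44, with a median of -0.080 and 8 of 20 pairs above 0. The sets were drawn after the correlations were seen, so they are a description.

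The division rested in part on inulin mice 4 and 5. Without inulin mouse 5 the median r over all 45 pairs was -0.011, with the diet means taken again over the remaining mice. Without inulin mouse 5, but with the deviations kept as they were, the medians were 0.71 within the first set, 0.53 within the second and -0.23 between them. Without inulin mouse 4 they were 0.60, 0.69 and 0.26.

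Of the 45 pairs, 3 passed an exact permutation test within diets (two-sided, 86400 orders) after adjustment over the 45 pairs, and 12 had an unadjusted p under 0.05. Tmigd1 and Car1 had r = 0.89 (permutation p 0.00075, adjusted 0.034) and Spearman rho = 0.90 (permutation p 0.00084, adjusted 0.038), and r = 0.83 without the 2 mice farthest from the median of Tmigd1. Krt20 and Vil1 had r = 0.88 (permutation p 0.0022, adjusted 0.034) and rho = 0.87 (permutation p 0.0025, adjusted 0.055), and r = 0.83 without the 2 farthest mice. Car4 and Ceacam20 had r = 0.94 (permutation p 0.0021, adjusted 0.034) and rho = 0.73 (permutation p 0.022, adjusted 0.28), and r = 0.82 without the 2 farthest mice. Prap1 and Tmigd1, which differed most with diet, had r = 0.72 (permutation p 0.016, adjusted 0.13) and rho = 0.65 (permutation p 0.043, adjusted 0.28), and r = 0.51 without inulin mice 4 and 6.

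**Figure D3:**
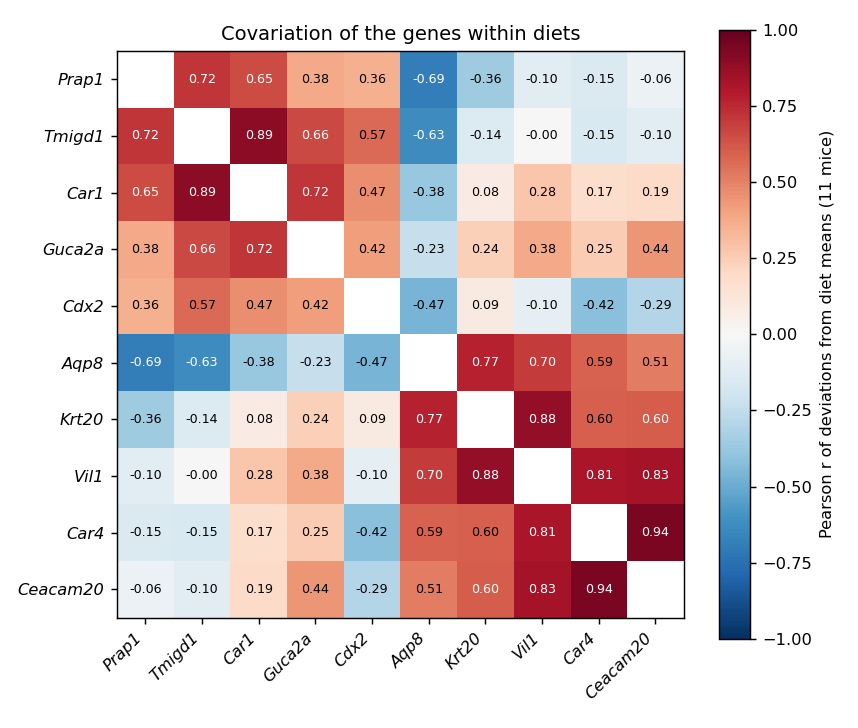
Pearson r between each pair of the 10 genes over 11 mice, computed on deviations from the diet means (colour scale from -1, blue, to 1, red; the number is printed in each cell). The upper left block holds Prap1, Tmigd1, Car1, Guca2a and Cdx2 and the lower right block Aqp8, Krt20, Vil1, Car4 and Ceacam20, with Prap1 and Aqp8 at -0.69.

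The 10 genes were also set against genes that mark position along the colon. The homeobox genes divide the gut along its length, and Hoxb13 and Hoxa13 are expressed towards its distal end. Over 250 relations of a gene with a list, 0 passed after adjustment and 50 had an unadjusted permutation p under 0.05, so the following are descriptions with their exact permutation p within diets. Against the mean of Hoxb13 and Hoxa13, Prap1 had r = -0.84 (permutation p 0.012, adjusted 0.12) and rho = -0.75 (permutation p 0.031, adjusted 0.25), and r = -0.54 without inulin mice 4 and 6. Tmigd1 had r = -0.79 (permutation p 0.0064, adjusted 0.095) and rho = -0.67 (permutation p 0.038, adjusted 0.26), and r = -0.85 without control mouse 5 and inulin mouse 3. Aqp8 went the other way, with r = 0.84 (permutation p 0.012, adjusted 0.12) and rho = 0.74 (permutation p 0.029, adjusted 0.24), and r = 0.57 without inulin mice 4 and 5. Krt20 had r = 0.40 (permutation p 0.29, adjusted 0.58) and rho = 0.16 (permutation p 0.66, adjusted 0.83), which became r = -0.37 without inulin mice 4 and 5. The other 6 genes had r from -0.62 (Cdx2) to 0.50 (Car4). Of the 10 genes, Cdx2 had the smallest permutation p with this mean (0.0014, adjusted 0.075). Its rho was -0.64 (permutation p 0.019, adjusted 0.18), and its r was -0.68 without control mice 3 and 5. Against the mean of all 5 measured distal genes, Hoxb13 and Hoxa13 among them, Aqp8 had r = 0.51 (permutation p 0.12, adjusted 0.40). Prap1 had r = -0.69 (permutation p 0.0059, adjusted 0.095) and Tmigd1 r = -0.79 (permutation p 0.0072, adjusted 0.095) with that mean. For Car1 and Cdx2 r was -0.76 and -0.80 (permutation p 0.0042 and 0.0014, adjusted 0.095 and 0.075). In the remaining genes r ran from -0.56 (Guca2a) to 0.18 (Car4). Relations as strong were seen with lists other than position, named here after their values were seen. Car1 had r = 0.85 with the T and B cell list (permutation p 0.00036, adjusted 0.075). Guca2a had r = 0.83 with the fat cell list (permutation p 0.0024, adjusted 0.075), and Ceacam20 r = 0.92 with brush border assembly genes (permutation p 0.0035, adjusted 0.088).

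The mean of 6 genes of the proximal colon, with Hoxb6 and Hoxb7 listed first, had relations of the opposite sign. Prap1 had r = 0.89 with its mean (permutation p 0.0023, adjusted 0.075; rho = 0.80, permutation p 0.013, adjusted 0.17; r = 0.68 without inulin mice 4 and 6). Tmigd1 had r = 0.85 (permutation p 0.0021, adjusted 0.075; rho = 0.75, permutation p 0.016, adjusted 0.17; r = 0.92 without control mouse 5 and inulin mouse 3). Between the diets, all 5 measured distal genes had lower means under inulin (median difference -0.69) and 4 of the 6 proximal genes higher ones (median 0.20), with 0 of these past the threshold in limma. At an unadjusted limma p under 0.05, 4 of the 5 distal genes were lower, against 7.19% of all genes. The 2 proximal genes with an unadjusted limma p under 0.05 were lower, Hoxa4 at -0.22 and Hoxa5 at -0.40, the latter with groups that did not overlap. Hoxd10 and Hoxd11, distal genes singled out after their values were seen, differed by -1.50 ± 0.26 and -1.45 ± 0.26 (SE; limma adjusted p 0.055 for each). Hoxb13 and Hoxa13, used as the covariate, differed less, by -0.62 and -0.46. With the mean of Hoxb13 and Hoxa13 as a covariate the difference of Prap1 was 0.78 and that of Tmigd1 0.48 (limma adjusted p 0.076 and 0.093). With the proximal mean as a covariate, an alternative chosen after seeing the data, they were 1.10 and 0.63 (adjusted p 0.0025 and 0.0042).

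**Figure D4:**
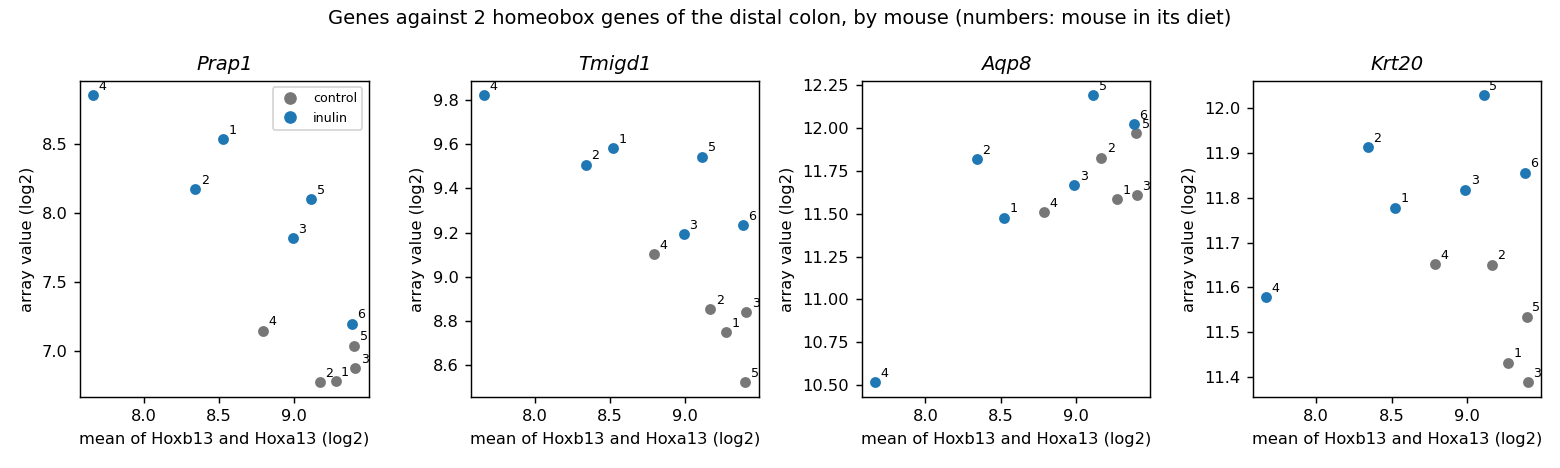
Prap1, Tmigd1, Aqp8 and Krt20 (log2, y axes, scaled per panel) against the mean of Hoxb13 and Hoxa13 (log2, x axis) in 5 control (grey) and 6 inulin mice (blue), with the mouse number beside each point. Inulin mouse 4, at 7.67 on the x axis, is highest in Prap1 and Tmigd1 and lowest in Aqp8, and inulin mouse 6, at 9.38, has the lowest Prap1 of its diet.

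Markers of other cell types also differed in mean between the diets, and their part in the differences was not tested beyond the covariates given. All 10 measured fat cell markers had higher means under inulin, 0 past the threshold, with Adipoq at 5.01 and 6.59 and Fabp4 at 6.23 and 8.17 in control and inulin means. With the fat cell and pancreas means as covariates the mean difference of the 10 genes was 0.17 instead of 0.26, with Prap1 at 0.84 and Tmigd1 at 0.49 (limma adjusted p 0.27 and 0.19). Without inulin mice 3, 4 and 5, which carried the most pancreas or fat signal, they were 1.04 and 0.63 (adjusted p 0.12 and 0.088). Pan-epithelial markers differed little, with 7 of 9 higher and a median difference of 0.020, which was -0.025 after quantile normalisation, and list means of 11.63 to 11.71 in control and 11.62 to 11.82 under inulin. With their mean as a covariate, chosen after seeing the data, Prap1 and Tmigd1 differed by 1.19 and 0.67 (adjusted p 0.045 and 0.042).

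Further lists of the differentiation programme were read beside the 10 genes, and in each of them 0 genes passed in limma over all genes. Of 27 other surface colonocyte genes 23 had higher means under inulin (51.4% of all genes; median difference 0.078), 8 were higher at an unadjusted limma p under 0.05 (6.34% of all genes), and 3 had groups that did not overlap, all higher (1.01%). Clca4b, a protein of the calcium-activated chloride channel regulator family, differed by 1.35 ± 0.24 (SE; 2.55-fold; adjusted p 0.055), and Dhrs9, a retinol dehydrogenase, by 0.76 ± 0.15 (SE; 1.69-fold; adjusted p 0.069). Clca4b has close relatives in the genome, so its probe set may share signal with them. Of 21 brush border assembly genes 18 had higher means (median 0.074), with the actin bundler Pls1 at 0.20 ± 0.049 (SE; adjusted p 0.12) and the scaffold protein gene Slc9a3r1 at 0.27 ± 0.075 (SE; adjusted p 0.17).

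The transcription factors of the intestine had no common direction, with 12 of 26 higher and a median of -0.011, which was 0.0057 with arrays centred on their median. Prdm1, known from the immature intestine, where it holds back the adult programme, was at 5.66 ± 0.39 (SD, n = 5) and 6.47 ± 0.29 (SD, n = 6), a difference of 0.81 ± 0.18 (SE; adjusted p 0.087), and Gata4, a factor of the small intestine, differed by 0.30 ± 0.10 (SE; adjusted p 0.23) from a control mean of 4.24.

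The families of the 10 genes were mixed. Of 12 other carbonic anhydrases 8 had higher means (median 0.20), with the membrane enzyme Car12 at 0.60 ± 0.12 (SE; 1.52-fold; adjusted p 0.069) and the cytosolic Car13 at 0.31 ± 0.063 (SE; 1.24-fold; adjusted p 0.071). The groups of 5 of the 12 did not overlap, all higher (1.01% of all genes). Car9, Car12 and Car13 among them had control means of 8.92 to 9.08. The others, Car5b and Car6, were low on the array scale (control means 4.18 and 3.63), and Car5b had an SD of 1.28 under inulin. Car3, whose groups overlapped, had the largest difference of the 12, at 1.77 ± 0.58 (SE; adjusted p 0.22), with an SD of 1.43 under inulin. The part of fat tissue in the differences of Car3 and Car5b was not tested. Of 10 other aquaporins 8 had higher means (median 0.095), led by Aqp7, a glycerol channel abundant in fat, at 1.34 ± 0.47 (SE; adjusted p 0.24), and Aqp12, at 0.26 ± 0.097 (SE; adjusted p 0.26). Of 12 other Ceacam genes 8 had higher means (median 0.044), with Ceacam2 at 0.54 ± 0.12 (SE; adjusted p 0.10) and Ceacam12 at 0.94 ± 0.23 (SE; adjusted p 0.12). Members of this family resemble each other in sequence, so their probe sets may share signal. In the guanylin pathway 5 of 9 had higher means (median 0.083), with the sodium-hydrogen exchanger Slc9a3 at 0.48 ± 0.13 (SE; adjusted p 0.16).

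At the other end of the crypt axis, 17 of 19 stem and progenitor genes had lower means under inulin (median -0.22, against 0.0039 over all genes), and the groups of 5 did not overlap, all lower under inulin (1.16% of all genes). At an unadjusted limma p under 0.05, 10 were lower, against 7.19% of all genes, and 1 was higher, Prom1, at 0.27, against 6.34%. Myc, a driver of growth and proliferation, differed by -0.41 ± 0.087 (SE; adjusted p 0.082) and Ephb3, a receptor that positions cells in the crypt, by -0.41 ± 0.096 (SE; adjusted p 0.11). Of 22 cell cycle genes 14 had lower means (median -0.10), with E2f1 at -0.27 ± 0.089 (SE; adjusted p 0.22) and Uhrf1 at -0.19 ± 0.073 (SE; adjusted p 0.30). The stem and progenitor mean was lowest in inulin mouse 5, at 7.20 against 7.65 to 7.88 in all other mice. This mouse had the highest Car4, Ceacam20, Vil1, Krt20, Aqp8, Car1 and Guca2a of all mice. It also had the highest mean of the pan-epithelial markers (11.82) and stood apart on the main axis of variation over all genes (37.0).

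**Figure D5:**
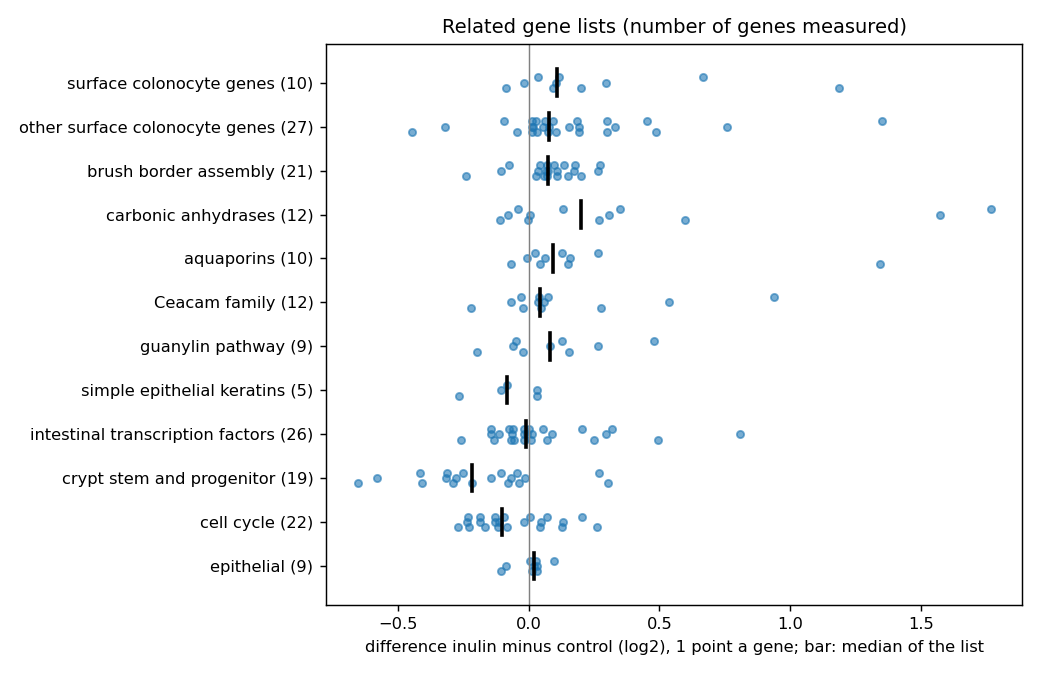
Difference between inulin and control means (log2, x axis) of each gene, 1 point a gene, in the 10 surface colonocyte genes, the 10 related lists and the epithelial markers, with a bar at the median of each list. Medians lie at 0.11 for the 10 genes, 0.078 for other surface genes and -0.22 for stem and progenitor genes. The points beyond 1.3 among carbonic anhydrases and aquaporins are Car3, Car5b and Aqp7.

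The genes whose pattern within diets was most like the mean of the 10 were Rinl, Slc10a6, Bnip5, Fstl1 and Parp8 (r 0.94 to 0.96 over 11 mice; 0.87 to 0.92 without inulin mouse 5). Those most unlike it were Prcp, Mrpl19, Shmt2, Shpk and Got2 (r -0.96 to -0.94). They were picked for their r among 18820 genes, which share arrays and mice, so r is a description here. Several were low on the arrays, where the lower quartile of all probe sets was 3.72 to 3.79. Slc10a6 was at 3.06 and 3.04 in control and inulin means, and Rinl, Fstl1 and Parp8 at 4.33 to 4.84, while Bnip5 was at 9.02 and 9.24. Tmcc2, named next for Guca2a, was at 3.74 and 3.63. The nearest for single genes were Slc51a (r = 0.97), a bile acid exporter subunit, for Prap1, Slco2b1 (0.97), an organic anion importer, for Tmigd1, Anxa8 (0.97) for Aqp8, Cd3g (0.96) for Car1, Ift140 (0.97) for Car4, Arhgap17 (0.97) for Ceacam20, Ccng2 (0.96) for Vil1, Itgav (0.93) for Krt20, Tmcc2 (0.95) for Guca2a and Slc17a9 (0.97) for Cdx2. None of these 10 differed between diets past the threshold in limma, with adjusted p from 0.19 to 0.90.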

How the data were processed

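RNA of mucosal scrapings (RNA integrity number above 8.0, whole-transcript labelling, per the labels' protocols) was measured on 11 single-colour arrays. The authors deposited log2 values normalised with RMA, per the submitters' processing notes, a method that corrects background, equalises arrays and combines a probe set's probes. For its version and build: not given in the sources used here. Of 35556 probe sets, 21218 had 1 gene symbol, 1881 several and 12457 were unnamed here. The probe set with the highest mean stood for each of 18820 genes. Differences (inulin minus control) were fitted with limma 3.58.1 in R 4.3.3 over all genes (no covariate, Benjamini-Hochberg adjustment, threshold 0.05), with exact permutation tests for the 10 genes. Folds are 2 to the power of differences of log2 means. Correlations used deviations from the diet means and exact permutation within diets, in Python 3.11.15.

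The mice are separate animals, so the spread is that between mice, and their number limits the precision. The 10 genes, 10 related lists and 14 marker lists were chosen with earlier results of these data known. In each related list the genes past the threshold, or otherwise the 2 with the smallest p, were named, and in marker lists the 2 listed first where a result turned on them. Other members named (Car3, Car5b and Gucy2c among them) were chosen after their values were seen. Genes most like the 10 were the 5 highest and 5 lowest r with their mean, and the highest for each gene. On simulated data with the spread of the 18820 genes, for inulin minus control, limma found 92% of 50 genes given a log2 change of 0.5, and 100% of 50 given a change of 1. The simulated noise was independent and equal in both diets. The simulation called 205 genes, against 17 in the real data, and Benjamini-Hochberg adjustment passes larger p-values when more genes are called. The real arrays may therefore allow less. Alternatives were other variance priors, array weights, a filter at the 40th percentile, 2 scalings, other uses of probe sets, a replicate block, single mice left out, other thresholds and marker covariates. The 250 promoter bases come from RefSeq (GRCm38.p6).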

Additional observations from a re-analysis of the deposited data

Results flagged for a closer look

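In 20 checks of the 10 genes in each diet, 3 values, from 2 mice, lay far from the rest of their group, where chance flags about 1 group in 20. Inulin mouse 5 was highest in Car4, at 12.88 against 12.66 for the next inulin mouse, and in Ceacam20, at 11.62 against 11.12. These gaps were 0.73 and 0.81 of the range of the 6 inulin mice, above the limit of 0.625. The same mouse also had the highest fat cell and macrophage marker means, and the part of these in its Car4 and Ceacam20 values was not tested. Control mouse 4 was highest in Guca2a, at 12.18 against 12.05 for the next control, a gap of 0.89 of the range of the 5 controls, above the limit of 0.71. It also had the lowest Hoxb13 and Hoxa13 mean of the controls (8.79). Its fat cell, macrophage and T and B cell marker means were the highest of the controls (5.88, 4.83 and 6.26). The part of any of these in its Guca2a value was not tested.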

How the results depend on the processing

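Of the 10 genes, 0 passed with the reported settings. Tmigd1 alone passed with a variance prior that follows intensity, with the 40th percentile filter and with arrays centred on their median (1 gene each), and Prap1 and Tmigd1 with array weights, with the replicate block (which also leaves out inulin mouse 6), at an adjusted p of 0.1, and with epithelial or proximal covariates, both chosen after seeing the data (2 genes each). Leaving out each mouse gave 0 to 2. The count over all genes, 17, became 42 with the intensity prior, 245 with array weights, 52 with the filter, 95 with the replicate block, 0 with the unmoderated test, 6 and 130 at adjusted p of 0.01 and 0.1, 31 with fat and pancreas covariates, 33 without inulin mice 3, 4 and 5, 99 and 114 with epithelial and proximal covariates, and 7 to 98 leaving out each mouse (7 without control mouse 1 or 2, 10 without control 3, 38 without control 4, 8 without control 5, 9, 10 and 11 without inulin 1, 2 and 3, 98 without inulin 5 and 50 without inulin 6). The cause was not tested, except that the filter tested fewer genes.

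The mean difference of the 10, 0.26, was 0.17 with fat and pancreas covariates, within its spread of 0.092 under the other 25 alternatives, and 0.22 to 0.28 leaving out each mouse. The median pairwise r, 0.28, was 0.47 with the replicate block and -0.011 to 0.42 leaving out each mouse, the lowest without inulin mouse 5. Prap1, Tmigd1, Krt20, Guca2a, Car1 and Vil1 kept their direction in every alternative run. Differences that changed sign were never past the threshold: Aqp8 was 0.13 without inulin 4, 0.072 with fat and pancreas covariates, 0.33 with the Hoxb13 and Hoxa13 covariate and 0.072 without inulin 3, 4 and 5. Leaving out each mouse gave -0.20 to 0.13 for Aqp8, -0.0041 to 0.056 for Car4 and -0.0011 to 0.14 for Ceacam20. Car4 was -0.0041 without inulin 5, -0.021 with fat and pancreas covariates and -0.00048 without inulin 3, 4 and 5, and Ceacam20 -0.0011, -0.091 and -0.024 likewise. Cdx2 was 0.015 with the replicate block, and from -0.085 to 0.066 leaving out each mouse, above 0 without control 1 (0.0088), control 4, inulin 5 (0.0012) or inulin 6 (0.015). Same-numbered mice of the 2 diets did not all deviate together (r over all genes of 0.063, 0.076, 0.15, 0.22 and -0.10 for numbers 1 to 5), and only numbers 3 and 4 matched their own number best, so the block shares only a number. Inulin mouse 6 has no control of its number and drops out of that fit, which gave the same differences as leaving it out (Prap1 1.37, Tmigd1 0.72). Of the list medians, those of the intestinal transcription factors, enteroendocrine and epithelial lists changed sign between the 2 scalings. So did the median over all genes, 0.0039 as reported, which was -0.0047 after quantile normalisation and 0.020 with arrays centred. Of the 18820 genes, 9677 had higher means as reported, 9029 after quantile normalisation and 10826 with arrays centred. Of the 9 epithelial markers, 3 had higher means after quantile normalisation.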

Other observations

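The other cell types of the crypt were read from marker lists chosen with earlier results known. Goblet cell markers had no common direction, with 5 of 9 higher under inulin (median difference 0.016), and Muc2, the main mucin, differed by 0.016 ± 0.048 (SE). All 6 markers of deep crypt secretory cells had lower means (median -0.82, 0 past the threshold in limma, 5 with an unadjusted p under 0.05, against 7.19% of all genes lower at that p). Their mean was 10.30 to 10.72 in 5 inulin mice, below every control, and 11.36 in inulin mouse 5, within the control range of 11.11 to 11.42. All 10 tuft cell markers had lower means (median -0.37), and Gnat3, a taste-type G protein subunit, differed by -0.73 ± 0.088 (SE; limma adjusted p 0.0069) with groups that did not overlap. Of 10 enteroendocrine markers 4 had higher means (median -0.0071, 0.0094 with arrays centred), and Cck, the gut hormone cholecystokinin, differed by 0.61 ± 0.091 (SE; limma adjusted p 0.025) with groups that did not overlap.

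Markers of tissue below the epithelium had mostly higher means under inulin: 8 of 8 for fibroblasts, 7 of 8 for endothelium, 8 of 8 for smooth muscle, 8 of 8 for macrophages, 9 of 12 for pancreas and 5 of 7 for T and B cells, with 0 past the threshold in limma. Of these, 3, 4, 2, 2, 3 and 1 had an unadjusted p under 0.05 and were higher (6.34% of all genes), and 2 pancreas markers, Pnliprp2 and Clps, were lower at that p (7.19%). Pnliprp2, Clps and Cela1 had control means of 8.76, 10.31 and 8.46, where the rest of the pancreas list had 3.72 to 5.96. They are part of the pancreas mean used as a covariate, and whether their signal came from pancreas was not tested. Inulin mouse 5 had the highest mean of the fibroblast, endothelial, smooth muscle, macrophage and T and B cell lists.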
